A study of Mus musculus with 8 samples.

Results

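The 36 genes described here encode the machinery that loads, docks, primes and fuses synaptic vesicles in the nerve terminal. They were chosen by symbol, with earlier results of these data known. The 6 role groups are SNARE core and recycling, calcium sensors and complexins, vesicle proteins, vesicular transporters, active zone and priming, and other presynaptic genes. All 36 were found among the 54752 genes of the count tables, and all 36 were among the 17136 genes that passed the filter on low counts. RNA-seq was performed on the right cerebral cortex of 8 mice, 4 with sham surgery and 4 with bilateral carotid artery stenosis (BCAS), in which microcoils narrow both common carotid arteries and lower the blood flow to the brain. Every animal was a wild-type C57BL/6 male (C57BL/6 J in the methods) aged 14 weeks, the tissue was taken 3 weeks after surgery, and each library came from 1 mouse. The coil on the right artery, the side that was sequenced, was the narrower one, so the BCAS samples represent the more severely stenosed hemisphere. The comparison asked which transcripts of the cortex differed after chronic hypoperfusion.

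Release of neurotransmitter begins when transporters fill vesicles and synapsins hold them in a reserve pool within the terminal. Scaffold proteins of the active zone then bring vesicles to calcium channels, priming factors ready them, and the SNARE proteins on the vesicle and the plasma membrane zip together. Synaptotagmins sense the calcium that enters with an action potential, complexins clamp and assist the assembled SNARE complex, and NSF with its SNAP adaptors takes spent complexes apart for reuse. In the cortex most terminals are glutamatergic and carry the transporter VGLUT1, while GABAergic terminals carry VGAT.

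Levels are given as CPM, the read counts of a gene per 1e+06 counts of its library after TMM scaling, and differences as log2 fold changes of BCAS over sham mice from edgeR's quasi-likelihood test, with p-values adjusted by the Benjamini-Hochberg method over all tested genes and called under 0.05. The libraries held 16759364 to 21794435 counts, and the lowest count of any of the 36 genes in any library was 217. Libraries differed in their cell type markers. The summed level of 15 pan-neuronal markers was 7119 to 7666 CPM in sham and 3286 to 6435 CPM in BCAS mice, and 8 of the 15 fell. The excitatory markers summed to 4989 to 6616 CPM in sham and 2052 to 4524 CPM in BCAS mice with 5 of 10 lower, and 4 of 10 inhibitory markers were lower. All 12 microglia and macrophage markers rose, from 411 to 501 CPM in sham to 2151 to 8549 CPM in BCAS mice, and 7 of 9 astrocyte markers rose, from 5315 to 6169 CPM to 7018 to 10084 CPM. In bulk tissue fewer neurons and less RNA per neuron cannot be told apart.

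Most of the presynaptic release genes were lower in BCAS mice. Of the 36, 21 fell and 0 rose, whereas 12.8% of all tested genes fell and 19.2% rose. The median log2 fold change of the 36 was -0.68, beside -0.01 over all tested genes. The estimate was negative for 35 of 36 genes with TMM and likewise with 3 other scalings (library size alone, upper quartile, size factors of DESeq2). Doc2b was the exception under each of the 4 scalings. Snap25, Syt2 and Rph3a, 3 of the 36, fell past a log2 fold change of -1, as did 1.28% of all tested genes. In 24 genes every BCAS mouse lay below every sham mouse, a pattern that 16.3% of tested genes showed. These were 20 of the 21 genes that fell, all but Syt2, together with Nsf, Syp, Sv2b and Sncb. Among the 15 genes that did not pass the test, 6 had an adjusted p between 0.05 and 0.07, and 27 of the 36 were lower at an unadjusted p under 0.05 and 0 were higher, beside 21.4% and 24.8% of all tested genes. DESeq2 called 27 lower (18.2% of all tested genes) and limma-voom 23 (13.7%), and neither called any higher (22.1% and 17.2%). With the library size alone as scaling, 16 of the 36 fell, beside 7.59% of all tested genes, and 24.6% of all calls were lower (1300 lower, 3977 higher), against 40.1% with TMM (2199 lower, 3291 higher).

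The number of called genes depended on single mice, while the sign of the estimates did not. It was 2 without sham mouse 1, 4 without sham mouse 2, 12 without sham mouse 3 and 4 without sham mouse 4. Leaving out BCAS mouse 3 gave 8 and BCAS mouse 4 gave 6, whereas 26 were called without BCAS mouse 1 and 32 without BCAS mouse 2. The share of all tested genes called lower in these fits moved between 2.37% and 20.9%. Whichever mouse was left out, 35 of 36 estimates were negative, with medians from -0.89 to -0.49. Napa and Rph3a were the 2 genes called in all 8 of these fits, whereas Vamp2, Syt1, Cplx2, Syn1, Sv2a, Rab3a, Slc17a7, Bsn and Pclo were called in 2, those without BCAS mouse 1 or 2. The count past a log2 fold change of -1, 3 with all mice, was 0 without BCAS mouse 1, 9 without BCAS mouse 2, 6 without sham mouse 3 and 1 without sham mouse 1 or 4. Of all tested genes 0.645%, 3.18%, 1.47%, 0.488% and 0.718% passed that fold change in these fits, in the same order.

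In 32 of the 36 genes the coefficient of variation was larger over BCAS than over sham mice, and it was smaller in Vamp1, Napa, Syt2 and Doc2b. BCAS mouse 1 had the lowest level of all 8 mice in 34 of the 36 genes, and BCAS mouse 2 had the highest level of the BCAS mice in 32. The level relative to the sham mean was, as the median over the genes, 36.02% in BCAS mouse 1, 86.0% in mouse 2, 65.0% in mouse 3 and 61.0% in mouse 4. Under 50% of the sham mean lay 30 genes in BCAS mouse 1, 0 in mouse 2, 1 in mouse 3 and 4 in mouse 4. Averaged over the genes on the log2 scale, the 4 BCAS mice lay at -1.39, -0.24, -0.59 and -0.67 from the sham mean, where the 4 sham mice lay between -0.03 and 0.04. The pan-neuronal markers were at -1.35, -0.26, -0.61 and -0.58 in the same mice, and the microglia and macrophage markers at 4.35, 2.41, 3.40 and 3.40. Mouse 1 was thus lowest for the release genes and neuronal markers and highest for the microglial ones, and mouse 2 showed the smallest shift in each. The part of cell composition in the differences was not tested.

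**Figure D1:**
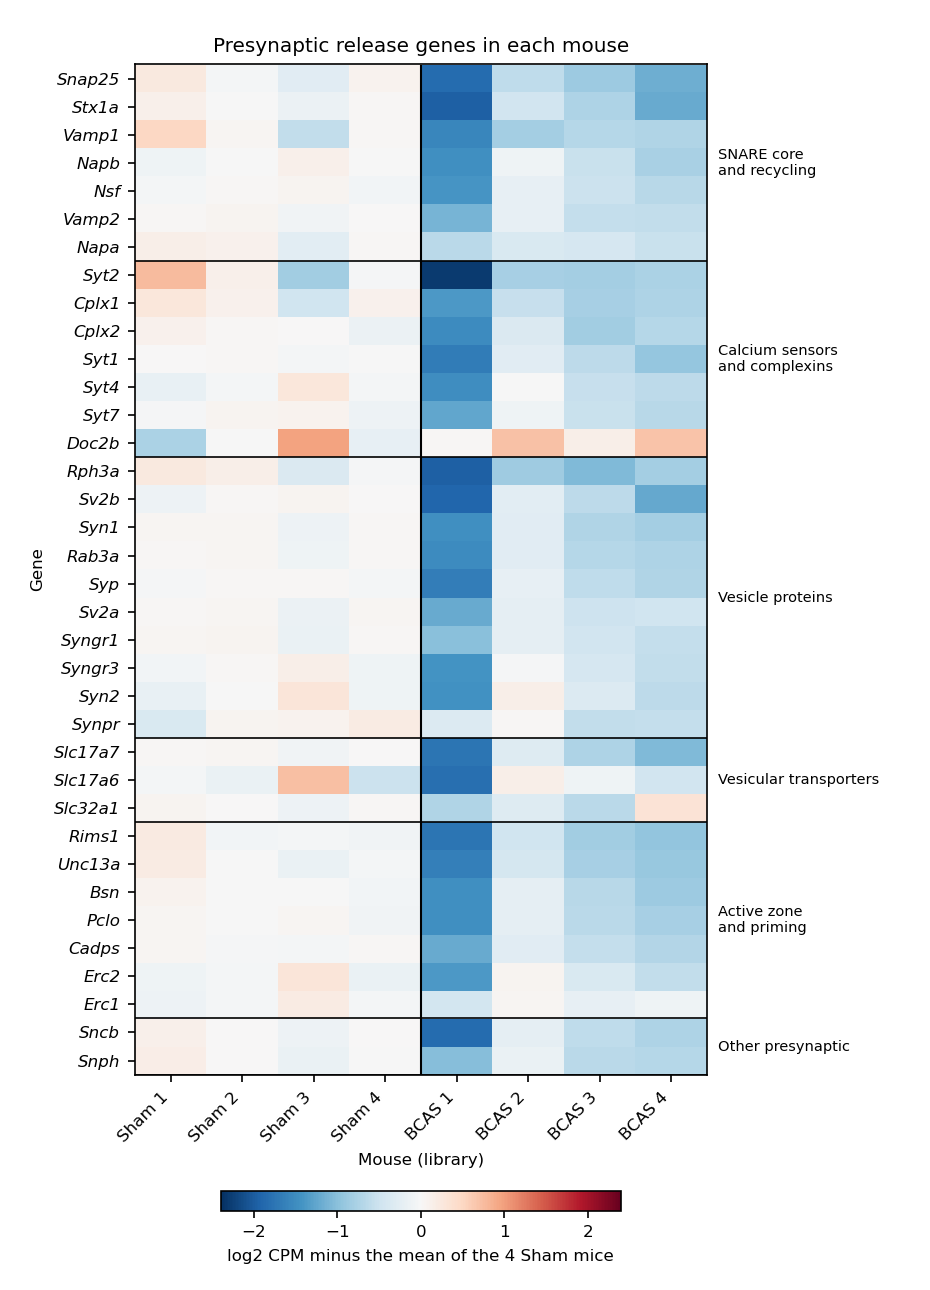
Level of each of the 36 genes (rows, by role group) in each of the 8 mice (columns), coloured by log2 CPM minus the mean of the 4 sham mice, with blue for lower and red for higher. BCAS mouse 1 is the darkest column, lowest of all 8 mice in 34 of 36 genes, and Doc2b is the row whose log2 fold change is above 0.

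In sham cortex the genes spanned a wide range of levels. Compared per kilobase of exon, the sham mean ranged from 3.21 RPKM for Erc1 to 473 ± 68.6 RPKM for Snap25 (SD, n = 4). After Snap25 came Cplx1 at 349 ± 71.9 RPKM, Vamp2 at 310 ± 14.0, Slc17a7 at 302 ± 11.2, Cplx2 at 276 ± 20.3 and Syt1 at 267 ± 5.83, and each of these genes differed from the next by less than the sum of their SDs. The coefficient of variation over sham mice had a median of 7.32%, was under 10% in 21 genes and above 20% in 5, and ran from 2.18% for Syt1 to 53.2% for Doc2b. Over BCAS mice its median was 32.96%.

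The SNARE core and its recycling factors fell in 5 of 7 genes, namely Snap25, Stx1a, Vamp1, Vamp2 and Napa. Snap25 (chr2:136713453-136782428, GRCm38, plus strand), which encodes the plasma membrane SNARE that gives the complex a pair of its helices, was at 3734, 3100, 2632 and 3382 CPM in sham and 890, 2086, 1748 and 1413 CPM in BCAS mice. No BCAS mouse reached the lowest sham mouse, and BCAS mouse 1 stood well below the other BCAS mice. The log2 fold change was -1.07 ± 0.257 (SE, n = 4 per group, adjusted p = 0.0172). Napa (chr7:16098458-16117975, plus strand) encodes alpha-SNAP, the adaptor that brings NSF to spent SNARE complexes. It was at 265, 258, 203 and 246 CPM in sham and 154, 188, 182 and 168 CPM in BCAS mice, close together in the latter, with a coefficient of variation of 8.77% that was the lowest of the 36. Napa fell by 0.49 ± 0.110 on the log2 scale (adjusted p = 0.0134). Its paralogue Napb, beta-SNAP of brain, was at 631, 679, 741 and 679 CPM in sham and 246, 633, 470 and 395 CPM in BCAS mice. Here BCAS mouse 2 overlapped the sham group, and the log2 fold change of -0.65 ± 0.244 did not pass the test (adjusted p = 0.0686).

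Stx1a, the syntaxin of the plasma membrane, fell to 50.2% of the sham mean (log2 fold change -0.99, adjusted p = 0.0258). Vamp1 and Vamp2 encode synaptobrevins, the SNAREs of the vesicle itself. Vamp1 was at 251, 184, 118 and 182 CPM in sham and 60.2, 100.3, 110.2 and 107 CPM in BCAS mice, and Vamp2 at 1201, 1232, 1106 and 1182 CPM and 546, 1029, 795 and 780 CPM. Neither gene's groups overlapped, and the log2 fold changes were -0.96 (adjusted p = 0.0218) and -0.58 (adjusted p = 0.0372). Nsf, the ATPase that unwinds SNARE complexes, had a log2 fold change of -0.64 with an adjusted p of 0.0545. Over the 8 fits that left out 1 mouse, Napa was called in all 8, with adjusted p from 0.00496 to 0.0466. Snap25 was called in 5, and its largest adjusted p was 0.0541 among the fits lacking BCAS mouse 4 or one of sham mice 1 and 4, where it was not called.

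**Figure D2:**
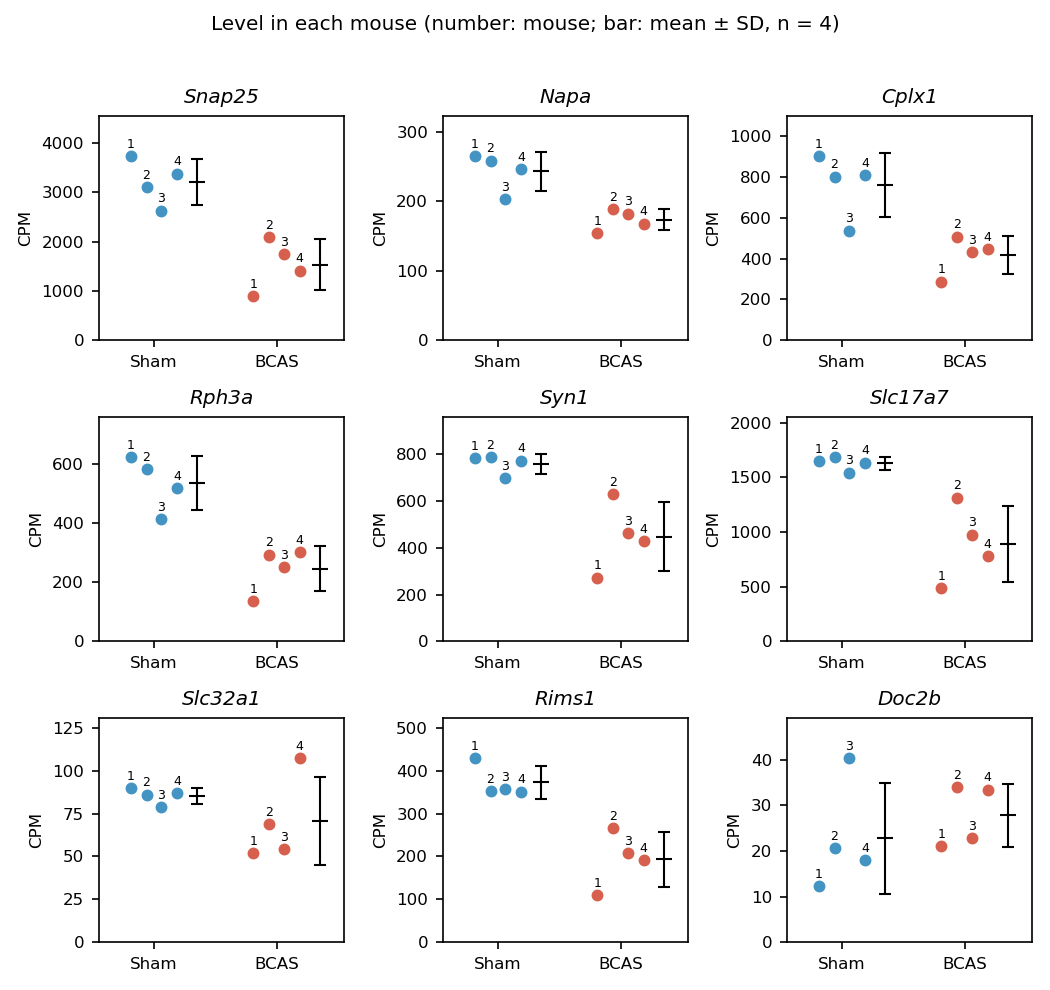
CPM of 9 of the genes in each mouse, one panel per gene with its own axis from 0, with blue points for sham and red for BCAS mice, the mouse number above each point, and bars for the mean ± SD (n = 4). For Snap25 the BCAS mice sit at 890 to 2086 CPM below the sham mice at 2632 to 3734 CPM, and for Doc2b and Slc32a1 the groups overlap.

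Among the calcium sensors and complexins 4 of 7 fell, namely Syt1, Syt2, Cplx1 and Cplx2. Cplx1 (chr5:108518554-108550024, minus strand) and Cplx2 (chr13:54371349-54383917, plus strand) encode the main complexins of the forebrain. Cplx1 was at 903, 802, 537 and 809 CPM in sham and 288, 507, 431 and 448 CPM in BCAS mice. The groups were separate, but sham mouse 3 lay only a little above BCAS mouse 2. Cplx1 fell by 0.87 ± 0.209 on the log2 scale (adjusted p = 0.0172). Cplx2 was at 1465, 1390, 1369 and 1226 CPM in sham and 476, 1071, 760 and 844 CPM in BCAS mice, without overlap, and its log2 fold change was -0.79 ± 0.221 (adjusted p = 0.0278). Doc2b (chr11:75768966-75796049, minus strand), a high-affinity calcium sensor linked to spontaneous release, was at 12.3, 20.7, 40.2 and 18.0 CPM in sham and 21.0, 34.0, 22.8 and 33.4 CPM in BCAS mice. Its lowest and its highest value were both in sham mice, and the log2 fold change of 0.28 ± 0.337 did not pass (adjusted p = 0.535). Single mice moved the estimate for Doc2b, to 0.70 without sham mouse 3 (adjusted p = 0.0671) and to between 0.07 and 0.18 without sham mouse 1 or 4 or BCAS mouse 2 or 4, and it was called in none of the 8 such fits.

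Syt1 and Syt2 are the fast calcium sensors of release. Syt1 was the steadiest gene over sham mice, at 2253, 2274, 2166 and 2207 CPM, and was at 694, 1853, 1442 and 1163 CPM in BCAS mice. The drop was -0.79 on the log2 scale (adjusted p = 0.0465). Syt2 was at 127, 81.8, 42.0 and 73.7 CPM in sham and 15.3, 43.3, 43.0 and 44.2 CPM in BCAS mice. Sham mouse 3 lay below 3 of the BCAS mice. The log2 fold change of Syt2 was -1.15 ± 0.388 (adjusted p = 0.0485), and it was -0.86 without sham mouse 1 (adjusted p = 0.132). The call was also lost without sham mouse 2 or 4 or BCAS mouse 3 or 4 (adjusted p from 0.0783 to 0.0986), with the library size alone (0.0595), with limma-voom (0.0567) and with limma-trend (0.0518). Syt7, a slow sensor linked to asynchronous release, had a log2 fold change of -0.59 (adjusted p = 0.0546). Syt4, which lacks normal calcium binding in one of its C2 domains, also stood at -0.59 (adjusted p = 0.110). It was at -0.37 without BCAS mouse 1 and was called lower without BCAS mouse 2 (adjusted p = 0.0129). Of the exon bases of Syt4 14.5% are covered by another gene, Gm26658, whose reads cannot be told apart since the counting used no strand. Cplx1 lost its call without sham mouse 1, 2 or 4 (largest adjusted p 0.0547) and Cplx2 in 6 of the 8 such fits, all but those without BCAS mouse 1 or 2 (largest adjusted p 0.0744).

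Of the 10 vesicle protein genes 5 fell, namely Syn1, Syngr1, Sv2a, Rab3a and Rph3a. Rph3a (chr5:120940499-121010092, minus strand) encodes rabphilin 3A, an effector of Rab3 on the vesicle, and had the smallest adjusted p of the 36. It was at 623, 582, 413 and 518 CPM in sham and 136, 293, 252 and 301 CPM in BCAS mice. All BCAS mice lay well under the lowest sham mouse. The log2 fold change was -1.12 ± 0.244 (adjusted p = 0.0119), and Rph3a was called in all 8 fits that left out a mouse, with adjusted p from 0.00225 to 0.0412. Rab3a itself, the small GTPase of the vesicle, stood at 60.1% of the sham mean (log2 fold change -0.73, adjusted p = 0.0342).

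Syn1 (chrX:20860511-20921004, minus strand) and Syn2 (chr6:115134902-115282006, plus strand) encode synapsins, which tether vesicles in the reserve pool. Syn1 was at 783, 787, 696 and 772 CPM in sham and 272, 630, 462 and 428 CPM in BCAS mice. No values overlapped, and the log2 fold change was -0.76 ± 0.219 (adjusted p = 0.0301). Syn1 kept its call without BCAS mouse 1 or 2 and lost it in the other 6 fits that left out a mouse, with adjusted p up to 0.0752. Syn2 was at 564, 631, 777 and 588 CPM in sham and 232, 698, 509 and 412 CPM in BCAS mice. BCAS mouse 2 lay above 3 of the sham mice, and the estimate of -0.47 ± 0.287 did not pass (adjusted p = 0.229). Without that mouse Syn2 was called at -0.73 (adjusted p = 0.0369), and without BCAS mouse 1 it was at -0.24.

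The other integral proteins of the vesicle membrane covered a range of estimates from -0.88 to -0.36. Sv2a and Syngr1, a vesicle glycoprotein and a synaptogyrin, fell by 0.56 (adjusted p = 0.0484) and 0.53 (adjusted p = 0.0340) on the log2 scale. Sv2b, the paralogue of Sv2a, had a larger estimate but a larger error, -0.88 ± 0.300 (adjusted p = 0.0510), at 632 to 714 CPM in sham and 183 to 576 CPM in BCAS mice. Syp, which encodes synaptophysin, the usual protein marker of terminals, was at 815 to 863 CPM in sham and 267 to 738 CPM in BCAS mice (log2 fold change -0.71, adjusted p = 0.0602), and 16.8% of its exon bases are shared with Gm14703. Syngr3 and Synpr did not pass, at -0.53 (adjusted p = 0.114) and -0.36 (adjusted p = 0.118). Without BCAS mouse 2 they were called lower (adjusted p = 0.0185 and 0.0178), and without BCAS mouse 1 Syngr3 was at -0.32 and Synpr at -0.36.

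The promoter of Syn1 is a textbook target of REST, a repressor that keeps neuronal genes off outside neurons by binding the element RE1. RefSeq promoter windows (GRCm38.p6, 250 bases before to 50 after each start) were matched for 30 of the 36 genes, and those of Snap25, Vamp2, Syt4, Syt7, Doc2b and Syngr3 were not used here. Both strands were searched for fixed letters. RE1 has a left part, TTCAGCACC, and a right part, GGNCA joined to GNGCC, with any 2 bases between the parts. This full element stood in the window of Syn1, which was 3.33% of the 30 genes, and in 0.0111% of all 27025 genes with a window. The left part stood in Syn1 and Unc13a (6.67%, beside 0.433% of all genes) and the right part in Napb, Rab3a, Syn1 and Unc13a (13.3%, beside 3.40%). Both parts lie inside the full element. The cyclic AMP response element TGACGTCA stood in Napa and Syn1 (6.67%, beside 2.03%). Syn1 is printed for the stretch upstream of its exons, chrX:20921005-20921168 on the minus strand, with the RE1 parts and the TGACGTCA in capitals.
Syn1: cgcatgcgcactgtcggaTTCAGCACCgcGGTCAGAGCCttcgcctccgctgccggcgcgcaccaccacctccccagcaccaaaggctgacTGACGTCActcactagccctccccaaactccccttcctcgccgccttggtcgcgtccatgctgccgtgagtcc

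The 3 vesicular transporters, as proteins, give the transmitter type of the terminals. The values here are of RNA in the dissected cortex, not of protein in terminals, and only Slc17a7 passed the test. Slc17a7 (chr7:45163949-45176142, plus strand), which encodes VGLUT1 of cortical glutamatergic terminals, was at 1650, 1683, 1542 and 1634 CPM in sham and 484, 1313, 977 and 781 CPM in BCAS mice. The groups did not overlap, and it fell by 0.87 ± 0.263 on the log2 scale (adjusted p = 0.0342). Slc17a6 (chr7:51622006-51671119, plus strand) encodes VGLUT2, which in cortex is carried mostly by axons that arrive from the thalamus. It was at 35.7, 32.8, 60.5 and 25.7 CPM in sham and 10.4, 40.3, 34.2 and 26.8 CPM in BCAS mice. Apart from BCAS mouse 1 the values overlapped, and the log2 fold change was -0.47 ± 0.394 (adjusted p = 0.374). For Slc17a6 it was -0.17 without sham mouse 3 and -0.19 without BCAS mouse 1.

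Slc32a1 (chr2:158610767-158615748, plus strand), which encodes VGAT of inhibitory terminals, was at 89.7, 85.9, 78.7 and 87.0 CPM in sham and 51.8, 68.7, 54.4 and 107 CPM in BCAS mice. BCAS mice 1, 2 and 3 were below all sham mice and mouse 4 was above all of them. The log2 fold change was -0.28 ± 0.211 (adjusted p = 0.332). In BCAS mouse 4 the summed level of 8 striatal markers was 1106 CPM, beside 388 to 717 CPM in the other 7 mice, and striatal projection neurons use GABA. The part of this in the value of Slc32a1 was not tested. Without BCAS mouse 4, Slc32a1 was called lower (log2 fold change -0.55, adjusted p = 0.0196), and the estimate was -0.14 without BCAS mouse 1 and -0.17 without BCAS mouse 3. Of its exon bases 24.9% are covered by Gm14205 on the opposite strand. Slc17a7 lost its call in the 6 fits that left out any one sham mouse, BCAS mouse 3 or BCAS mouse 4, with adjusted p up to 0.0880.

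At the active zone 5 of 7 genes fell, namely Unc13a, Rims1, Bsn, Pclo and Cadps. Rims1 (chr1:22286251-22805994, minus strand) encodes RIM1, the organiser that links Rab3, MUNC13 and calcium channels. It was at 428, 353, 357 and 351 CPM in sham and 110, 265, 208 and 192 CPM in BCAS mice. The difference of -0.94 ± 0.230 (adjusted p = 0.0181) was called in 7 of 8 fits that left out a mouse. The exception was the fit without sham mouse 1, which had the highest Rims1 level of the sham mice (adjusted p = 0.0561). Unc13a (chr8:71624417-71671757, minus strand) encodes MUNC13-1, the factor that opens syntaxin for priming. It was at 585, 507, 457 and 495 CPM in sham and 164, 378, 292 and 272 CPM in BCAS mice. Again the groups were separate, with a log2 fold change of -0.89 ± 0.222 (adjusted p = 0.0194), and the call was lost without BCAS mouse 4 or either of sham mice 1 and 2 (largest adjusted p 0.0596). Cadps, the priming factor CAPS1 of dense core vesicles, fell by 0.65 (adjusted p = 0.0231).

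Erc1 (chr6:119570796-119848167, minus strand) and Erc2 (chr14:27622428-28478537, plus strand) encode the ELKS proteins, of which ELKS1 is made in many tissues and ELKS2 mainly in brain. Erc1 was at 47.6, 50.5, 60.0 and 50.7 CPM in sham and 38.1, 53.8, 45.3 and 48.3 CPM in BCAS mice, and its log2 fold change of -0.17 ± 0.119 had an adjusted p of 0.289. Its groups overlapped, and 11.8% of its exon bases are covered by Gm44317. Erc2 was at 191, 199, 251 and 183 CPM in sham and 78.7, 214, 158 and 136 CPM in BCAS mice, where mouse 2 lay inside the sham range, and the estimate was -0.49 ± 0.259 (adjusted p = 0.168). Without BCAS mouse 2, Erc2 was called at -0.72 (adjusted p = 0.0265), and without BCAS mouse 1 it was at -0.27. Erc1 was at -0.10 without sham mouse 3 and -0.08 without BCAS mouse 1.

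Bsn and Pclo encode bassoon and piccolo, giant scaffolds of related sequence that keep vesicles clustered near the release site. Bsn was at 704, 659, 658 and 634 CPM in sham and 240, 572, 419 and 364 CPM in BCAS mice. Pclo was at 387, 373, 389 and 356 CPM in sham and 136, 325, 241 and 218 CPM in BCAS mice. Their log2 fold changes were -0.74 ± 0.226 (adjusted p = 0.0367) and -0.71 ± 0.222 (adjusted p = 0.0386). The log2 ratio of Bsn to Pclo was 0.82 ± 0.0443 in sham and 0.79 ± 0.0373 in BCAS mice (SD, n = 4), the narrowest spread of the 13 pairs compared. Their promoter windows both hold GCGCA followed by any base and GCGC, the element of NRF1, a factor known for genes of mitochondrial and neuronal energy metabolism. These letters stood in Bsn, Nsf, Pclo, Syngr1 and Syp, 16.7% of the 30 genes with a window and 5.19% of all genes. The stretches upstream of the exons are shown with these letters in capitals, for Bsn at chr9:108190385-108190633 on the minus strand and for Pclo at chr5:14514668-14514917 on the plus strand.
Bsn: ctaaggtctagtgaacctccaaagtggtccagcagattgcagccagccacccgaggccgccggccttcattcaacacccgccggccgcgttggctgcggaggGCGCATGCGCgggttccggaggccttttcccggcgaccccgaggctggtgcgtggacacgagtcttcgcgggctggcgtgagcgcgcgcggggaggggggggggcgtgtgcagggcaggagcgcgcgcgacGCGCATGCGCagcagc
Pclo: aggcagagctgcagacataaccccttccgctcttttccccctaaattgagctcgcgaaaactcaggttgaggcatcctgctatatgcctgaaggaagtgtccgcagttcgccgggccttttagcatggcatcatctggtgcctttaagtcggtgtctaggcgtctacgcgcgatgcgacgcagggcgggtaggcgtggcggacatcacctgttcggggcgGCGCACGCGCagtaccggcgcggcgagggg

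The GC box GGGCGG, which Sp1 binds, stood in the windows of 23 of the 30 genes (76.7%, beside 38.2% of all genes), and the TATA box letters TATAAA in Sv2b alone (3.33%, beside 15.7%). The matches in Sv2b were on the strand opposite to the gene, at -50 to -45 and -232 to -227 from the start. The EGR1 letters GCGTGGGCG stood in Unc13a (3.33%, beside 0.707%), and these can overlap a GC box. All such matches are descriptions of letters within the windows.

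The other presynaptic genes were Snph and Sncb. Snph (chr2:151590549-151632593, minus strand) encodes syntaphilin, which anchors mitochondria in axons and binds syntaxin. It was at 488, 438, 391 and 431 CPM in sham and 215, 388, 279 and 270 CPM in BCAS mice. Sham mouse 3 and BCAS mouse 2 nearly met, and the log2 fold change was -0.60 ± 0.171 (adjusted p = 0.0287). The call of Snph was lost without sham mouse 1, 2 or 4 or BCAS mouse 3 or 4, with adjusted p up to 0.0808. Sncb (chr13:54758860-54766595, minus strand) encodes beta-synuclein of terminals. At 344, 317, 290 and 316 CPM in sham and 87.9, 272, 207 and 189 CPM in BCAS mice it had no overlap, but the estimate of -0.74 ± 0.279 did not pass (adjusted p = 0.0675).

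**Figure D3:**
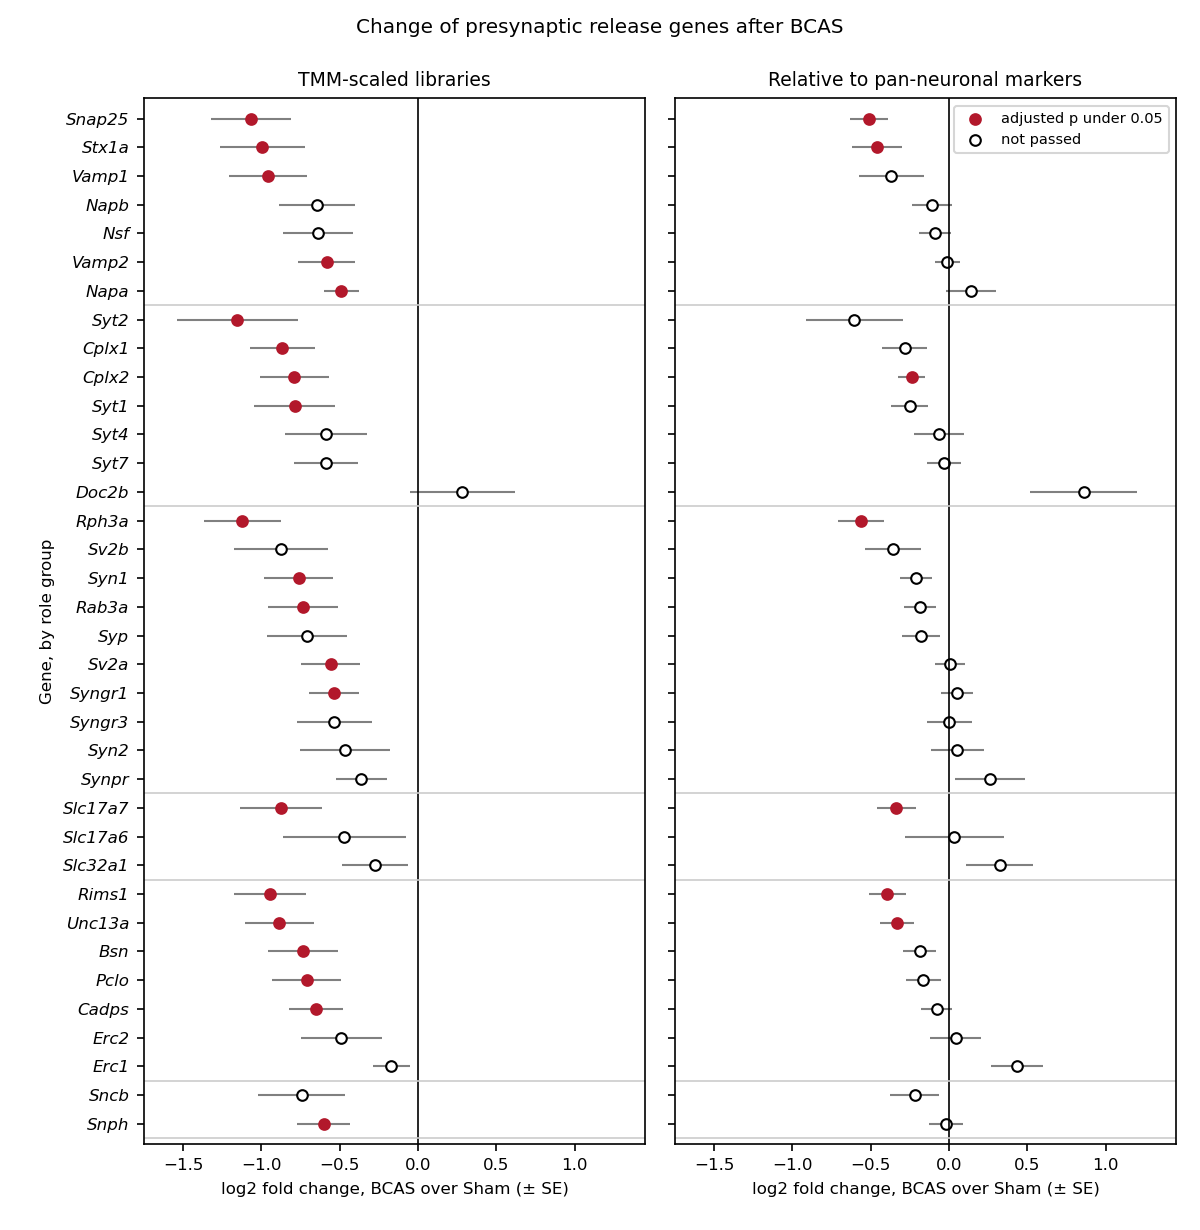
Log2 fold change of BCAS over sham mice (x axis, ± SE, n = 4 per group) for the 36 genes by role group, on TMM-scaled libraries (left) and relative to the summed pan-neuronal markers (right), with filled points for adjusted p under 0.05. On the left 21 points are filled and 35 lie below 0, and on the right 7 are filled and 25 lie below 0.

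Since neuronal markers were lower in the same mice, the genes were also measured relative to the summed counts of the 15 pan-neuronal markers, in place of the library size. On that scale 25 estimates were below 0 and 11 above, with a median of -0.14, beside a median of 0.64 over all tested genes. The 15 pan-neuronal markers themselves had a median of -0.15, with 1 lower and 0 higher. For the 10 excitatory markers the median was -0.36, with 2 lower and 1 higher. For the 10 inhibitory markers it was 0.08, with 0 lower and 1 higher. Lower relative to the markers were 7 of the 36 genes, namely Snap25, Stx1a, Cplx2, Rph3a, Slc17a7, Unc13a and Rims1, and 0 were higher (2, Doc2b and Erc1, at an unadjusted p under 0.05), whereas 0.747% of all tested genes were lower and 48.9% higher. The log2 fold changes relative to the markers were -0.56 ± 0.150 for Rph3a (adjusted p = 0.0177), -0.51 ± 0.123 for Snap25 (adjusted p = 0.0131) and -0.46 ± 0.161 for Stx1a (adjusted p = 0.0390). Smaller ones were found for Rims1 at -0.39 (adjusted p = 0.0251), Slc17a7 at -0.34 (adjusted p = 0.0451), Unc13a at -0.33 (adjusted p = 0.0321) and Cplx2 at -0.24 (adjusted p = 0.0436). Vamp2, Sv2a, Syngr3 and Snph lay within 0.02 of the markers on the log2 scale, and Doc2b had the highest estimate, 0.86 ± 0.342 (adjusted p = 0.0575).

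This measure turned on the choice of markers. Relative to the summed excitatory markers the median of the 36 was 0.13, 0 genes were lower and 4 were higher, namely Slc32a1, Erc1, Doc2b and Syngr1, whereas the median over all tested genes was 0.92, with 0.111% lower and 72.3% higher. With the geometric mean of the pan-neuronal markers 2 were lower, Snap25 and Rph3a, and Erc1 was higher, beside 0.356% of all tested genes lower and 53.7% higher. Snap25 was lower by this measure whichever mouse was left out. In those fits the count was 1 without sham mouse 1 or 2, 4 without sham mouse 3, 2 without sham mouse 4 or BCAS mouse 4, 5 without BCAS mouse 1, 9 without BCAS mouse 2 and 6 without BCAS mouse 3. Higher relative to the markers were Doc2b without sham mouse 3, and Doc2b and Erc1 without BCAS mouse 2. The shares over all tested genes moved too, from 0.0738% to 1.05% lower and from 16.9% to 63.9% higher, both lowest without sham mouse 1 and highest without BCAS mouse 2.

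**Figure D4:**
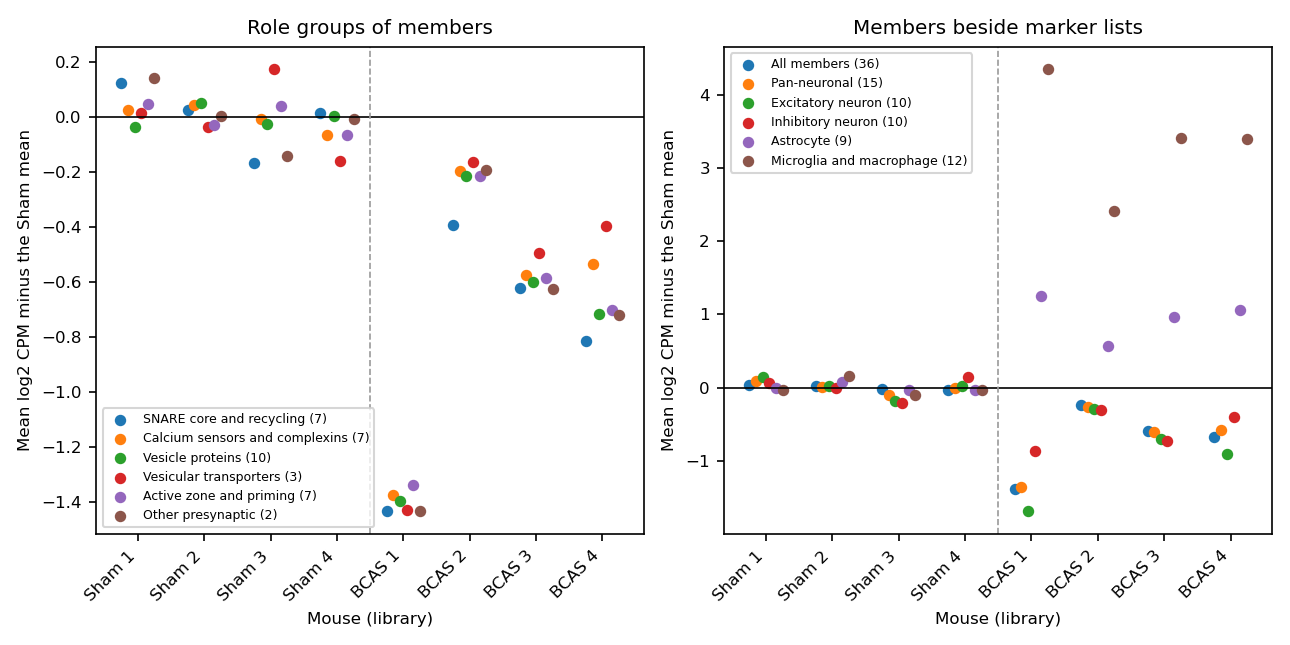
Mean log2 CPM minus the sham mean in each mouse (x axis) for the 6 role groups (left) and for all 36 genes beside 5 marker lists (right), with the number of genes in brackets. The role groups lie between -1.43 and -1.34 in BCAS mouse 1, where the 36 genes lie at -1.39, the pan-neuronal markers at -1.35 and the microglia and macrophage markers at 4.35.

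Whether related genes moved unequally was asked with the log2 ratio of 13 pairs within each library, which does not depend on the scaling. None of the 13 passed an exact two-sided permutation test over the 70 arrangements of the libraries, for which 0.0286 is the smallest possible p, and 0 had an unadjusted p under 0.05. At least 8 of the pairs would have to reach that smallest p for an adjusted p under 0.05. A p above the threshold does not show that the genes moved alike. The lowest p, 0.0857 (adjusted p = 0.433), was shared by 2 pairs. For Slc17a7 over Slc32a1, VGLUT1 over VGAT, the log2 ratio was 4.20, 4.29, 4.29 and 4.23 in sham and 3.22, 4.26, 4.17 and 2.87 in BCAS mice, so mice 1 and 4 stood apart and mice 2 and 3 were close to the sham range. For Erc1 over Erc2 the mean log2 ratio was -1.97 ± 0.0879 in sham and -1.58 ± 0.412 in BCAS mice. Vamp1 over Vamp2 gave a difference of -0.33, Syn1 over Syn2 -0.26, Napa over Napb 0.24 and Cplx1 over Cplx2 -0.02.

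Of a wider set of 117 tested presynaptic genes outside the 36, 54 fell, 12 rose and 51 did not pass, with a median log2 fold change of -0.42, beside 12.8% of all tested genes lower and 19.2% higher with a median of -0.01. The SNARE regulators had 9 lower and 4 higher of 15. Among the decreases there was that of the septin gene Sept5 (-0.79, adjusted p = 0.0116). Snap23 and Vamp3, SNAREs of membrane traffic in many non-neuronal cells, rose by 1.37 (adjusted p = 0.0116) and 1.00 (adjusted p = 0.0087) on the log2 scale. Their levels were low, 12.9 ± 2.13 and 31.4 ± 2.57 CPM in sham and 33.2 ± 14.7 and 62.6 ± 18.8 CPM in BCAS mice (SD, n = 4).

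Other calcium sensors and complexins had 6 lower and 0 higher of 18, led by Cabp1, a neuronal calcium-binding protein, at -1.24 (adjusted p = 0.00911) and Syt16 at -0.87 (adjusted p = 0.0402). The active zone genes had 18 lower and 3 higher of 29. Rims3 and Cadps2, relatives of RIM1 and CAPS1, fell by 1.08 each (adjusted p = 0.0117 and 0.0215). Unc13d, the MUNC13 of secretory granules in blood cells, rose from 1.36 ± 0.409 to 8.28 ± 5.34 CPM (log2 fold change 2.60, adjusted p = 0.00563), and the liprin gene Ppfia4 by 1.00 (adjusted p = 0.00737).

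Other vesicle protein genes had 11 lower and 3 higher of 27. Slc6a17, a vesicular transporter of neutral amino acids, and Atp6v1g2, a neuronal subunit of the vesicle's proton pump, fell by 0.80 (adjusted p = 0.0349) and 0.77 (adjusted p = 0.0306). Syngr2, the synaptogyrin of non-neuronal cells, rose from 7.52 ± 1.20 to 47.9 ± 26.1 CPM (log2 fold change 2.67, adjusted p = 0.00292). Slc10a4, a vesicular protein of cholinergic and monoaminergic neurons, rose by 2.41 (adjusted p = 0.0410) at few counts, 5 to 26 in sham and 27 to 214 in BCAS mice, with the highest in BCAS mouse 4. Vesicle endocytosis genes had 10 lower and 2 higher of 28. Endophilin A1 (Sh3gl2) and dynamin 1 (Dnm1), the neuronal forms, fell by 0.82 (adjusted p = 0.0348) and 0.76 (adjusted p = 0.0491). The widely expressed Dnm2 and Picalm rose by 1.01 (adjusted p = 0.0122) and 0.61 (adjusted p = 0.0202). Leaving out 1 mouse moved the wider count of lower genes to 10 without sham mouse 1, 11 without sham mouse 2, 26 without sham mouse 3, 10 without sham mouse 4, 13 without BCAS mouse 3, 12 without BCAS mouse 4 and 79 without BCAS mouse 2, and it was 58 without BCAS mouse 1. The share of all tested genes called lower moved with it, and was 2.37%, 2.95%, 8.21% and 3.09% without sham mice 1 to 4 and 11.2%, 20.9%, 4.19% and 4.03% without BCAS mice 1 to 4.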

How the data were processed

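RNA-seq counts of 8 right cortices (4 sham, 4 BCAS, 1 mouse per library, grouped by the labels) were analysed. According to the methods, the authors used Trim Galore on the paired reads, HISAT2 for alignment to mm10, SAMtools 1.9 for sorting and featureCounts for counting per gene, and deposited raw counts. The file headers name featureCounts 2.0.1 and GENCODE vM20 with no strand option, whereas the methods name version 1.6.3 and RefSeq genes. Symbols were matched for 54723 of 54752 gene IDs through a GENCODE vM21 table of the same build. No pair of libraries agreed within sampling noise. A count of 0 would allow at most 0.179 CPM (3 counts, counting error only).

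The counts were tested with edgeR 4.0.16 in R 4.3.3: TMM scaling, filterByExpr (minimum count 10, minimum total 15), the quasi-likelihood F-test without covariates, and Benjamini-Hochberg adjustment over 17136 genes. The study used limma, with DESeq2 besides. The SE was taken from the fold change and its F. RPKM is CPM per kilobase of exon. Log2 levels and pair ratios used a prior count of 0.5. Relative values replaced the library size by summed marker counts. Marker and wider lists (119 genes, of which Vamp7 was not matched and Cplx4 did not pass the filter) and the 36 genes were chosen with earlier results of these data known. Named with values in every mouse are, per role group, the 2 genes with the smallest and the 1 with the largest adjusted p, any gene higher in BCAS, and both genes of a pair discussed; from the wider lists, the 2 lower and 2 higher calls with the largest change, of which 1 gene is not reported here. Syt1, Syt2 and the values of single mice beyond this rule were chosen after they were seen. Alternatives were 3 other scalings, 2 filters, DESeq2 1.42.0, limma 3.58.1 (voom and trend), a replicate block, a stricter threshold and each mouse left out. Plots used Python 3.11.15 and matplotlib 3.10.9.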

Additional observations from a re-analysis of the deposited data

Results flagged for a closer look

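In 72 tests of one extreme mouse within a group of 4 (Dixon's criterion on the gap over the range), 4 values stood apart. Chance alone gives about 1 in 20 of such tests, so 4 of 72 is near the number that chance gives. Syt2 in BCAS mouse 1 was at 15.3 CPM, beside 43.0 to 44.2 CPM in the other BCAS mice. Syn1 in sham mouse 3 was at 696 CPM, beside 772 to 787 CPM in the other sham mice, and Sv2a in the same mouse was at 477 CPM, beside 532 to 543 CPM. Rims1 in sham mouse 1 was at 428 CPM, beside 351 to 357 CPM. In sham mouse 3 the summed choroid plexus markers were at 783 CPM, beside 16.6 to 73.1 CPM in the other 7 mice, and the part of this tissue in the values of Syn1 and Sv2a was not tested.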

How the results depend on the processing

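Of the 21 genes called lower, 0 passed an adjusted p under 0.01 (27 of the 36 were lower at an unadjusted p under 0.05). The share of all tested genes past that stricter threshold was not counted. Genes outside the 36 did pass it, such as C1qa, which rose (adjusted p = 0.00146), and Cabp1, which fell (adjusted p = 0.00911). Past a log2 fold change of -1 the count of 3 became 1 with the library size alone and 5 with limma-trend. Of all tested genes 0.870% and 0.846% passed that fold change in these fits, in place of 1.28%. The library size alone called 34 of the wider genes lower in place of 54, beside 7.59% of all tested genes in place of 12.8%. Leaving out each mouse gave 2 to 32 of the 36 lower, 0 to 9 past the fold change, 10 to 79 of the wider genes lower and 8 to 15 higher, and 1 to 9 lower relative to the pan-neuronal markers. That last count, 7 as reported, was 0 with the excitatory markers and 2 with the geometric mean of the pan-neuronal markers. Replicate numbers are shared by the groups in the labels, but same-numbered mice did not deviate together (correlations -0.042, -0.099, -0.007 and 0.002). Differently numbered mice had correlations from -0.109 to 0.115. With 4 mice per group these values gave no sign of a pairing by number but cannot exclude one. With the replicate number as a block 13 of the 36 were lower, 12 of them among the 21, beside 6.58% of all tested genes, and 2 were lower and 0 higher relative to the markers, beside 0.158% and 28.2%. The adjusted p of Syt2 was 0.125 under the block. Of 612 refits of single genes under an alternative, 467 kept direction and side of the threshold, 36 gained and 109 lost the call, and 0 turned direction. The pair tests could hardly pass under any alternative run (under the block the smallest possible p is 0.125), so their adjusted p from 0.186 to 1 say nothing about stability. The cause of these changes was not tested. The lowest count of the 36 genes in a library was 217.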
